A study of Homo sapiens with 6 samples.

Results

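The ferritin heavy chain gene FTH1 and the metallothionein genes MT2A and MT1X were examined after depletion of RNF5 in LP-1 cells, a human line established from multiple myeloma. RNF5 is a ubiquitin ligase anchored in membranes of the endoplasmic reticulum and of mitochondria. They are the 3 members found by name among the 1877 genes of the deposited table, the rule being FTH1, MT2A and any name formed of MT1 and a letter, without the mitochondrial MT- genes. MT1X was the one MT1 gene listed, and other metallothioneins and ferritin pseudogenes were not analysed here. The knockdown libraries came from LP-1 cells with a short hairpin RNA against RNF5, labelled RNF5 KD (n = 3), and the others from LP-1 cells that carried a non-target control, labelled Ctrl (n = 3). All were total RNA from cells grown in RPMI-1640 with 15% serum. Whether 1 or several hairpins or clones were used, how long after the hairpin RNA was taken, and whether the 3 libraries per group are separate cultures is not stated in the labels.

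Ferritin is a hollow protein shell, built of heavy and light chains, in which cells store iron. The heavy chain oxidizes ferrous iron so that it can be deposited, and the light chain, encoded by FTL, helps to form the mineral core. Metallothioneins are small cysteine-rich proteins that bind zinc, copper and cadmium through their thiols. Their genes are known to be switched on by zinc through the transcription factor MTF1, and also by glucocorticoids and oxidants, while the ferritin genes answer to NRF2 and, in translation, to iron regulatory proteins.

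The 3 members were chosen because they were lower in the knockdown, so their values in that contrast are given as a description with no test. The authors had also kept for the table those genes whose log2 fold change was 1 or more in size with an adjusted p under 0.05, on these same libraries. RNF5, the gene targeted, averaged 88.4 ± 7.03 in RNF5 KD libraries and 1497 ± 218 in Ctrl libraries (SD, n = 3 each). Values are deposited normalized abundances of a scale that is not given, so levels of different genes are not compared with each other. The values of the listed genes summed to between 116843 and 122079 in the RNF5 KD libraries and to between 90825 and 93975 in the Ctrl libraries, which is not a depth, and the depth is unknown. RNA came from whole cultures, in which fewer cells of a type and less RNA per cell cannot be told apart.

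The upstream sequences of the metallothionein genes are shown because they carry the metal response elements by which this family is known. Both genes lie on the plus strand of chromosome 16, and the 250 bases before each gene start are given from RefSeq on GRCh38.p14, at chr16:56608334-56608583 for MT2A and chr16:56682220-56682469 for MT1X. Capitals mark the core of the metal response element, searched as TGCACNC or TGCGCNC on both strands.
MT2A: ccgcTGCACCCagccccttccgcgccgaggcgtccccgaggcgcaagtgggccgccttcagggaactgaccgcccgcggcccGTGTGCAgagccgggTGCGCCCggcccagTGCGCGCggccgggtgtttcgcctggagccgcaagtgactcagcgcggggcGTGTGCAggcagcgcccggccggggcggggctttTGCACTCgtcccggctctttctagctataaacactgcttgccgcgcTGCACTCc
MT1X: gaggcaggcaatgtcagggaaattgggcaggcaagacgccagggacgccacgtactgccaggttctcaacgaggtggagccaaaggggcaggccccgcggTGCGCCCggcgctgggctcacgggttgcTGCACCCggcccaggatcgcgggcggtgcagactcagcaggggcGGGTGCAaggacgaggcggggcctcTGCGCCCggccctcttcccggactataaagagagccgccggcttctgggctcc

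The MT2A sequence held 7 such cores and the MT1X sequence 4. Of 35116 promoters of the same length in the RefSeq table, 24.8% held at least 1 core, 0.370% held at least 4 and 0.0313% held at least 7. The core of the antioxidant response element, searched as TGACNNNGC on both strands, occurred once in each gene and in 10.9% of all promoters. In MT2A it began 104 bases before the gene start and overlapped an AP-1 site, TGACTCA. The heat shock element core, searched as GAANNTTC or TTCNNGAA, had no match in either sequence and at least 1 match in 11.6% of promoters. The hexamer TGTTCT, part of the glucocorticoid response element, also had no match in either, against 12.4% of promoters. Other forms of these elements and bases farther upstream were not searched, so a missing match does not show that a gene lacks the element. Both sequences held TATAAA near the gene start. Anywhere in the 250 bases, on either strand, 10.7% of promoters held it. These matches describe letters and not binding. The table held no promoter for FTH1. The 250 bases before FTL, searched in the same way, held 1 heat shock element core and no match to any of the other patterns.

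For the ferritin chains the iron-responsive element is shown, the stem-loop at the start of both mRNAs through which iron regulatory proteins hold back translation when iron is scarce. The 28 bases come from the first-numbered GENCODE 29 transcripts of FTH1 (bases 60 to 87, gene on chromosome 11) and FTL (bases 36 to 63, chromosome 19). Capitals mark the bulged C and the CAGTG loop.
FTH1: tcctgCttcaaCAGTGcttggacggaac
FTL: tcttgCttcaaCAGTGtttggacggaac

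The elements had 26 of 28 bases in common and differed by C3T and C17T, FTH1 first, counted from 1 at the 5′ end of the printed bases. A C, any 5 bases and CAGTG, searched on the transcript strand, occurred in the first 200 bases of 7.47% of 83064 protein-coding transcripts, so these letters alone do not mark a working element. MT2A and MT1X each encode 61 codons, of which 20 are cysteine codons, at the same positions in both genes. Their coding sequences were identical at 169 of 183 bases (92.3%).

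Because copies are so alike, counts for these genes may share reads with other genes. In the corresponding transcript of MT1X, 45.1% of all windows of 50 bases also occurred exactly in transcripts of other genes, 8 of the 9 named as metallothioneins. For MT2A the share was 4.88%. For FTH1 it was 40.4%, with 14 FTH1 pseudogenes among the 15 other genes. For FTL it was 18.3%, shared with 2 FTL pseudogenes. How reads with several matching places were assigned, and the read length, are not stated in the labels. The levels of MT1X, FTH1 and FTL are therefore uncertain, by an amount that these shares do not measure.

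FTH1 (ENSG00000167996), the iron-oxidizing chain, had abundances of 1415, 1036 and 1174 in RNF5 KD libraries 1, 2 and 3, against 3145, 4611 and 4353 in Ctrl libraries 1, 2 and 3. The groups did not overlap, and the lowest control was 2.22 times the highest knockdown value. The mean was 1208 ± 192 in RNF5 KD libraries and 4036 ± 783 in Ctrl libraries (SD, n = 3 each), which is 29.9% of the control level. The log2 fold change was -1.73 on the log2(value + 1) scale, and -1.71 in the authors' deposited table.

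MT2A (ENSG00000125148), in many human cells the main metallothionein, had abundances of 12.7, 7.76 and 6.01 in RNF5 KD libraries 1, 2 and 3, against 21.5, 18.0 and 45.5 in Ctrl libraries 1, 2 and 3. The groups did not overlap, but control library 3 stood at 2.30 times the mean of the other controls. The mean was 8.82 ± 3.47 in RNF5 KD libraries and 28.3 ± 14.9 in Ctrl libraries (SD, n = 3 each), or 31.2% of the control level. The log2 fold change was -1.52, and -1.78 in the authors' deposited table. Without control library 3 the knockdown mean was 44.7% of the control mean of 19.8, and the log2 fold change was -1.13.

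MT1X (ENSG00000187193), an inducible metallothionein of the same cluster on chromosome 16, had abundances of 15.5, 11.1 and 7.41 in RNF5 KD libraries 1, 2 and 3, against 18.2, 18.7 and 41.9 in Ctrl libraries 1, 2 and 3. The groups came close, since the lowest control was 1.17 times the highest knockdown value, and control library 3 was again the high one, at 2.27 times the mean of the others. The mean was 11.3 ± 4.05 in RNF5 KD libraries and 26.2 ± 13.5 in Ctrl libraries (SD, n = 3 each), or 43.2% of the control level. The log2 fold change was -1.09, and -1.18 in the authors' deposited table, where the adjusted p of MT1X was 0.0311 and thus near the limit for listing. Without control library 3 the knockdown mean was 61.5% of the control mean of 18.4 (log2 fold change -0.71).

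In all 3 members every RNF5 KD value lay below every Ctrl value. Of the 1877 listed genes 45.5% had that pattern (93.2% did not overlap in either direction), and since the members were chosen for it nothing is read from their count. RNF5 KD library 1 was the highest of its group in each member, at 1.28 times the mean of the other knockdown libraries for FTH1, 1.84 times for MT2A and 1.68 times for MT1X. The spread between libraries was wider in the metallothioneins than in ferritin. The SD was 39.3% of the mean for MT2A and 35.8% for MT1X in RNF5 KD libraries, and 52.8% and 51.6% in Ctrl libraries, against 15.9% in RNF5 KD and 19.4% in Ctrl libraries for FTH1. In the controls the spread of the metallothioneins came mostly from library 3. Control libraries 1 and 2 were close, at 21.5 and 18.0 for MT2A and 18.2 and 18.7 for MT1X.

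**Figure D1:**
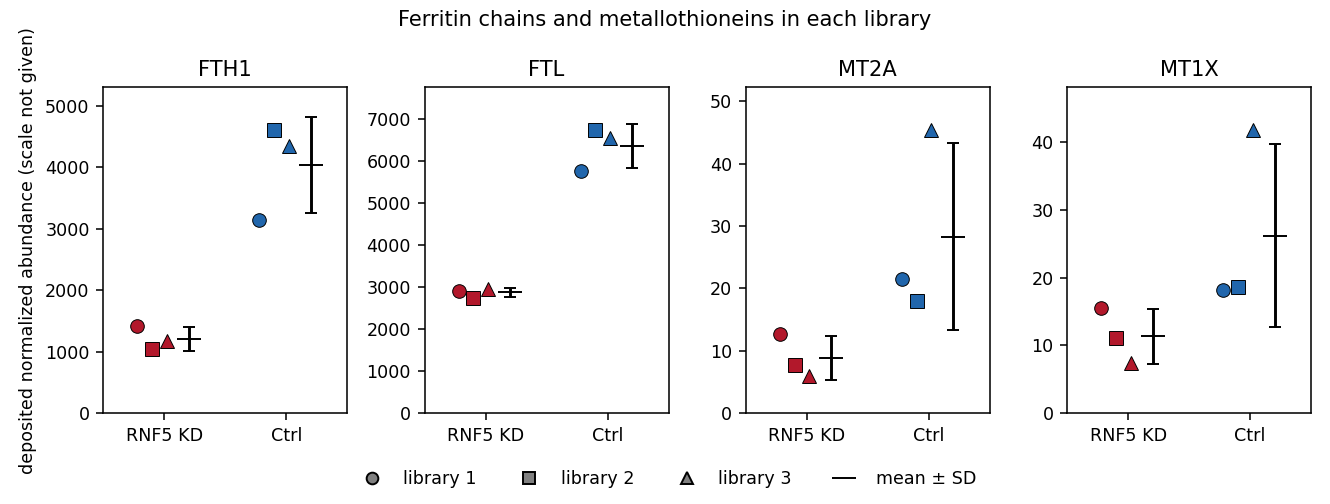
Deposited normalized abundance (linear axis, scale not given) of FTH1, FTL, MT2A and MT1X in each RNF5 KD and Ctrl library, with marker shapes for the library number and bars for the mean ± SD (n = 3 each). The knockdown points lie below the control points in all 4 genes, and control library 3 stands far above the other controls in MT2A (45.5) and MT1X (41.9) but not in FTH1 (4353) or FTL.

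FTL, the partner chain of FTH1 and no member, fell in the same libraries. It had 2915, 2751 and 2963 in RNF5 KD libraries 1, 2 and 3, against 5760, 6753 and 6553 in Ctrl libraries 1, 2 and 3. The mean was 2876 ± 111 in RNF5 KD libraries and 6355 ± 525 in Ctrl libraries (SD, n = 3 each), a log2 fold change of -1.14 (SE 0.12, limma adjusted p = 1.24e-05 over all genes tested). Under quantile normalization it was -1.85. The authors had selected FTL on these libraries too, so this p is not independent evidence.

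Ratios within a library do not depend on a single scaling factor for that library and show how far the members differ from each other. FTH1 over FTL was 0.486, 0.377 and 0.396 in RNF5 KD libraries 1, 2 and 3, against 0.546, 0.683 and 0.664 in Ctrl libraries 1, 2 and 3. The heavy chain was thus lower relative to the light chain in every knockdown library (0.419 ± 0.0581 in RNF5 KD and 0.631 ± 0.0742 in Ctrl libraries, SD, n = 3 each). This holds for the deposited values. The log2 fold changes were -1.73 for FTH1 and -1.14 for FTL as reported. Under quantile normalization, which is no single factor, they were closer to each other, at -1.97 for FTH1 and -1.85 for FTL. MT1X over MT2A was 1.22, 1.43 and 1.23 in RNF5 KD libraries 1, 2 and 3, against 0.844, 1.04 and 0.921 in Ctrl libraries 1, 2 and 3. MT2A was therefore lower relative to MT1X in every knockdown library, and control library 3, high in both genes, lay between the other controls in their ratio. MT2A over FTH1 ran from 0.00512 to 0.00898 in RNF5 KD libraries and from 0.00390 to 0.0104 in Ctrl libraries, which overlap. These ratios come from the contrast that chose the members and have no test.

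**Figure D2:**
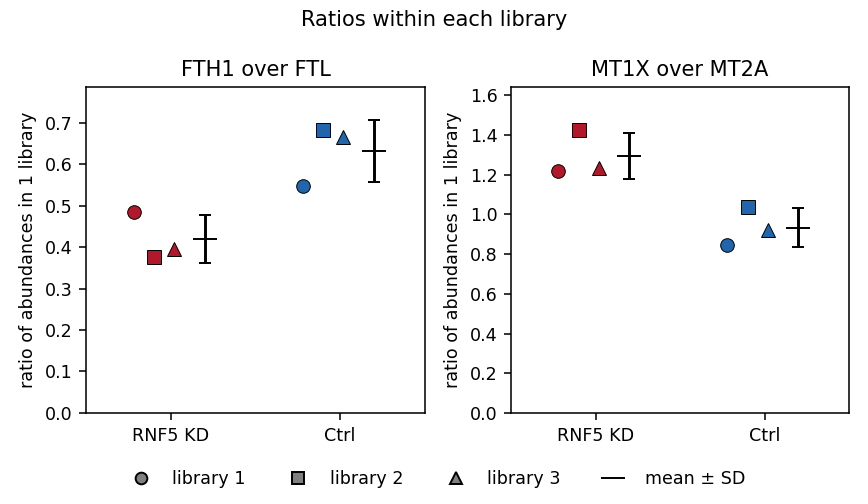
Ratio of FTH1 to FTL (left) and of MT1X to MT2A (right) within each RNF5 KD and Ctrl library, on linear axes from 0, with bars for the mean ± SD (n = 3 each). FTH1 over FTL is lower in the knockdown libraries (0.377 to 0.486) than in the controls (0.546 to 0.683), while MT1X over MT2A is higher (1.22 to 1.43, against 0.844 to 1.04).

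Control library 3 set the metallothioneins apart from most of the table. Among the 598 listed genes whose mean reached 5, that library had the lowest control value in 428 and the highest in 95, and its median ratio to the mean of the other controls was 0.758. MT2A and MT1X ranked 2 and 3 in this ratio, and 6 of the 598 genes reached a ratio of 2. COX17, a copper chaperone of cytochrome c oxidase, was another of the 6, at 450 in control library 3 against 217 and 229 in libraries 1 and 2. FTH1, with a ratio of 1.12, ranked 88.

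Transcript length went with the position of control library 3. The median ratio was 1.06 in 101 genes with transcripts under 1000 bases, 0.819 in 153 genes of 1000 to under 2000 bases, and 0.694 in 308 genes of 2000 bases or more. A ratio of 2 was reached by 5 of the 101 short genes (4.95%), MT2A and MT1X among them. It was reached by 0 of the middle genes, 0 of the long ones and 1 gene of unknown length. The median length of the annotated transcripts was 494 bases for MT1X, 684 for MT2A and 764 for FTH1, so by this median all 3 members belong to the short group. The FTH1 transcript used above for the iron-responsive element and the shared windows has 1229 bases and would fall in the middle group. The share of genes with a negative log2 fold change varied little with length, at 53 of the 101 short genes, 75 of the 153 middle ones and 148 of the 308 long ones. With the trend of the fold change on length removed, the log2 fold change was -1.77 for FTH1, -1.58 for MT2A and -1.24 for MT1X. That setting shifts the knockdown values only and leaves control library 3 as it was, so it does not correct for the position of that library. The part of RNA quality or library preparation in the position of control library 3 was not tested.

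**Figure D3:**
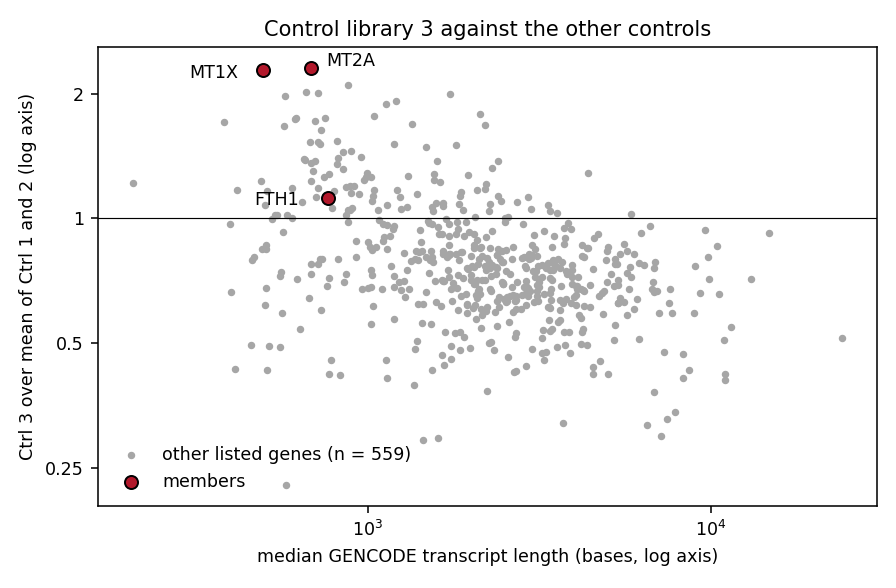
Ratio of control library 3 to the mean of control libraries 1 and 2 (log axis) against the median GENCODE transcript length in bases (log axis), for listed genes with a mean of at least 5 and a known length. Most genes lie below 1 and short ones more often above it. MT2A (2.30) and MT1X (2.27) lie at the top, and FTH1 (1.12) just above 1.

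The genes with profiles most like the members were taken by Euclidean distance between log2(value + 1) profiles over the 6 libraries, each centred on its own mean, among 534 other named and tested genes whose mean reached 5. The distance covers both the difference between the groups and the spread within them. For the neighbours named here, unequal fold changes made up 80.7% of the squared distance between MT2A and MT1X, but 0.38% to 35.8% of the others, so spread within the groups gave most of those. MT2A and MT1X were each other's nearest gene, at 0.587. HSPE1, the co-chaperonin of mitochondria, came next for MT2A (0.712) and after COX17 for MT1X (0.635). COX17 itself was at 0.606 from MT1X. CKS2, a binding partner of cyclin-dependent kinases, followed for MT2A (0.800). These genes also have short annotated transcripts, of 570 bases for HSPE1, 613 for CKS2 and 660 for COX17. FTH1 was nearest to UBE2C, a ubiquitin-conjugating enzyme of mitosis (0.599), and to the mitochondrial ribosomal RNAs MT-RNR2 (0.634) and MT-RNR1 (0.652). Its distance was 1.13 to MT2A and 1.30 to MT1X.

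The fold change of each member kept its sign in all 15 alternatives, but for most of them this was fixed in advance. Since every knockdown value lay below every control value, no pseudocount and no left-out library could reverse it. The filters, the variance trend and the replicate block leave the fold change as it is. Over the alternatives the fold change ranged from -1.97 to -1.63 for FTH1, from -1.79 to -0.97 for MT2A and from -1.33 to -0.71 for MT1X. The smallest fold changes of the metallothioneins came with a pseudocount of 10 (-0.97 for MT2A and -0.72 for MT1X) and without control library 3 (-1.13 and -0.71). Without RNF5 KD library 3 they were -1.31 for MT2A and -0.84 for MT1X.

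**Figure D4:**
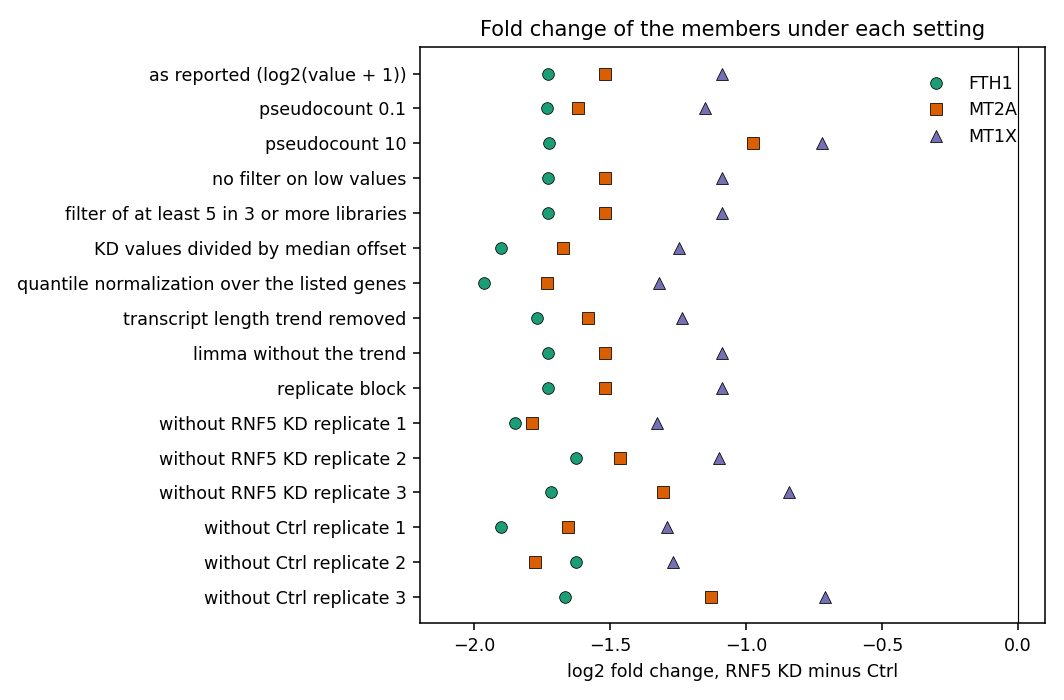
Log2 fold change (RNF5 KD minus Ctrl) of FTH1, MT2A and MT1X as reported and under each of the 15 alternatives, 1 row per setting. All points lie below 0, which most of the settings could not have changed. FTH1 stays between -1.97 and -1.63, and MT1X comes nearest to 0 without control library 3 (-0.71).

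Iron genes outside the members were few in the table. Of 31 genes of iron uptake, storage, export and sensing, 3 were listed, and FTL was the 1 that could be tested. HEPH, a ferroxidase that assists iron export, had a mean of 0.353 ± 0.145 in RNF5 KD libraries and 0.860 ± 0.219 in Ctrl libraries (SD, n = 3 each). HFE, which regulates iron uptake through hepcidin, had 0.727 ± 0.531 in RNF5 KD libraries and 0.223 ± 0.116 in Ctrl libraries (SD, n = 3 each), and its groups overlapped. Both were too low to test. TFRC, NCOA4, SLC40A1 and the iron regulatory proteins ACO1 and IREB2 have no values here.

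In haem handling, 3 of 20 genes were listed and all 3 fell, against 42.0% of the 1290 genes tested that limma called lower. Their median log2 fold change was -1.14, and that of all genes tested was 0.73. The median of all genes depends on the settings, since the table holds few genes near 0, and it was -0.11 with no filter on low values. HMOX1, which opens the haem ring and frees its iron, had 10.6, 9.64 and 11.3 in RNF5 KD libraries 1, 2 and 3, against 45.1, 50.4 and 32.5 in Ctrl libraries 1, 2 and 3 (log2 fold change -1.90, SE 0.20, limma adjusted p = 1.09e-05). BLVRB, a biliverdin reductase, averaged 41.6 ± 4.10 in RNF5 KD libraries and 92.4 ± 4.18 in Ctrl libraries (SD, n = 3 each; log2 fold change -1.14, limma adjusted p = 6.93e-05). SLC48A1, which moves haem across membranes, averaged 20.9 ± 1.39 in RNF5 KD libraries and 37.6 ± 7.74 in Ctrl libraries (SD, n = 3 each; log2 fold change -0.80, limma adjusted p = 0.00192). The share of genes called in either direction was 97.7%, since the authors had listed genes for their change.

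Zinc and copper genes were nearly absent from the table. None of 24 zinc transporters, SLC30A1 included, was listed, nor MT3 and MT4. Of 12 copper genes 1 was listed, COX17, which fell to 144 ± 13.1 in RNF5 KD libraries, against 299 ± 131 in Ctrl libraries (SD, n = 3 each; log2 fold change -0.97, limma adjusted p = 0.00242). This call was lost under quantile normalization (adjusted p = 0.0982), and without control library 3 the log2 fold change was -0.64 (adjusted p = 0.000497). None of the 12 regulators known to act on metallothionein or ferritin genes, among them MTF1, NFE2L2, KEAP1, BACH1 and HSF1, was listed, so whether they differed was not analysed here.

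Of 13 glucocorticoid-responsive genes 1 was listed, the clock gene PER1. It had 8.11, 5.90 and 11.1 in RNF5 KD libraries 1, 2 and 3, against 30.1, 28.8 and 12.4 in Ctrl libraries 1, 2 and 3 (log2 fold change -1.34, SE 0.32, limma adjusted p = 0.00161), and with a pseudocount of 10 the log2 fold change was -0.84. Its lowest control was library 3, the highest one in MT2A and MT1X. The position of PER1 is the common one, held by 428 of the 598 listed genes whose mean reached 5.

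The NRF2 antioxidant list, which holds FTL and HMOX1, had 12 of its 26 genes in the table, and limma called each of them lower, the median log2 fold change being -1.23. Of all genes tested 42.0% were called lower and 97.7% in either direction. EPHX1, an epoxide hydrolase, averaged 21.9 ± 0.608 in RNF5 KD libraries and 78.8 ± 16.1 in Ctrl libraries (SD, n = 3 each; log2 fold change -1.78, limma adjusted p = 1.18e-05). The glutathione genes GSR (log2 fold change -1.32), a reductase, and GCLM (-1.11), a subunit of the synthesis enzyme, also fell, as did the exporter ABCC2 (-1.36) and the cystine transporter SLC7A11 (-0.88). SRXN1 (-2.49) and OSGIN1 (-2.31) fell as well. Values of low genes here depend on the pseudocount. For ABCC2, with means of 0.327 in RNF5 KD and 2.47 in Ctrl libraries, the log2 fold change was -2.60 with a pseudocount of 0.1 and -0.27 with 10. With 10 it was also smaller for GCLM (-0.62), OSGIN1 (-1.33) and SLC7A11 (-0.39). The thiol protein TXN (-0.88), the peroxidase PRDX1 (-0.85) and the autophagy receptor SQSTM1 (-0.91) also fell, but under quantile normalization TXN (adjusted p = 0.236) and SQSTM1 (adjusted p = 0.103) did not pass, and PRDX1 was at -0.49 (adjusted p = 0.026). TXN, with a short annotated transcript of 752 bases, was at 334 in control library 3, against 191 in each of the other controls. That library was thus the high one in TXN, as in MT2A and MT1X, but not in most of this list. Its ratio to the mean of the other controls was 1.75 for TXN, 1.26 for PRDX1 and 1.05 for FTL. In the rest of the 12 genes it lay below that mean, from 0.488 (SQSTM1) to 0.935 (SLC7A11). Some of this list was known to have fallen when it was written, and the authors had selected its genes on these libraries.

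**Figure D5:**
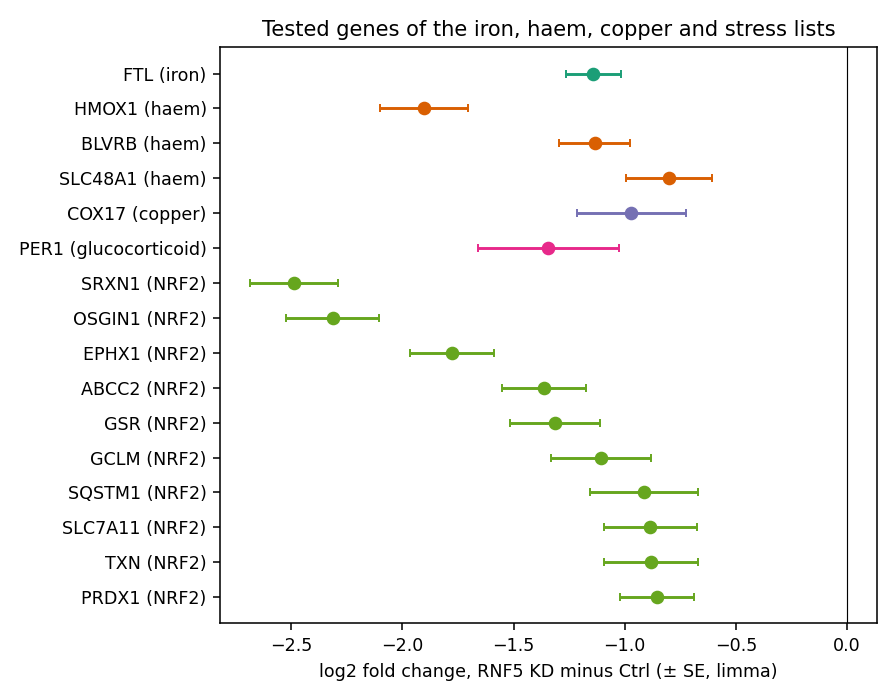
Log2 fold change (RNF5 KD minus Ctrl, limma on log2(value + 1), ± SE) of the tested genes of the iron, haem, copper, glucocorticoid and NRF2 lists, each gene drawn once. All lie below 0, from SRXN1 (-2.49) to SLC48A1 (-0.80).

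Markers of the cell type and of other cells were checked among the listed genes. Of 12 plasma cell and myeloma markers 3 were listed, SDC1, ITGB7 and CD28, and all 3 rose, as did 55.7% of the genes tested. Hepatocytes are rich in both ferritin and metallothionein, and of their 10 markers ALB, HP and APOB were listed, with a summed abundance of 0.82 to 1.47 in RNF5 KD libraries and 2.33 to 3.91 in Ctrl libraries. ALB, the defining marker, had 0.73, 1.34 and 0.89 in RNF5 KD libraries 1, 2 and 3, against 2.59, 1.34 and 1.84 in Ctrl libraries 1, 2 and 3 (log2 fold change -0.55, limma adjusted p = 0.0145), and its groups met at 1.34. Of 8 epithelial markers CLDN4 was listed, at 1.36 ± 0.104 in RNF5 KD libraries and 2.70 ± 0.735 in Ctrl libraries (SD, n = 3 each; limma adjusted p = 0.00675). None of 12 macrophage, 10 erythroid and 10 T and NK cell markers was listed, which says nothing of their level. The part of other cells in the members' values was not tested.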

How the data were processed

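The table deposited by the authors gave 1877 genes selected for change, with a value in each of 6 libraries. Bowtie 0.12.2 and hg19 are named in the submitters' processing notes, for no particular step. The library values deposited by the authors are a normalized signal, not counts, of a scale not given in the sources used here. Per the file headers, the authors' table also holds a fold ratio of knockdown over control, its log2 form, and raw and adjusted p-values from a test that is not stated. The log2 ratio of the library means exceeded the authors' value by a median of 0.173 over 431 genes. For the members the difference was 0.0937 (MT2A), -0.0251 (FTH1) and -0.0288 (MT1X).

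Genes that reached 1 in no fewer than 3 libraries entered limma 3.58.1 (R 4.3.3, mean-variance trend, group alone) on log2(value + 1), 1290 genes, which included all 3 members. Benjamini-Hochberg adjusted p under 0.05 over these genes made a call. The log2(value + 1) scale understates the change of low genes. The script was tested on simulated data. Transcript lengths were the median of the basic GENCODE 29 transcripts, found for 91.9% of the tested genes. The length trend was a loess curve of the log2 fold change on log2 length, centred on its mean. Sequences came from RefSeq and GENCODE on GRCh38, of which promoters for MT2A, MT1X and FTL but not FTH1 were matched.

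The genes named were the members, RNF5, listed genes of 8 pathway lists, FTL and other copies of the members, and the 3 nearest profiles of each member. Some marker genes were named after their values were seen. The members and lists were chosen with earlier results of these data known. The p-values measure only the spread between these libraries, which may be technical. Alternatives were the pseudocount, the filter, the scaling, the length trend, the variance trend, the replicate block and each library left out.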

Additional observations from a re-analysis of the deposited data

How the results depend on the processing

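As reported, limma called 542 genes lower and 718 higher. With no filter on low values 880 genes were called lower, and 2 iron genes in place of 1, since more genes were tested. With a filter of at least 5, 291 were called lower and 363 higher, since fewer genes were tested. Under quantile normalization 0 copper genes were called, the single one, COX17, having an adjusted p of 0.0982, and the cause was not tested. Leaving out 1 library gave 415 to 527 genes lower and 555 to 716 higher. The median log2 fold change of all genes tested, 0.73, was 0.62 once knockdown values were scaled down by the median difference from the authors' fold changes and 0.48 under quantile normalization. It was 1.14 with a pseudocount of 0.1, 0.15 with 10, -0.11 with no filter on low values, 1.01 with the filter of at least 5, 0.16 to 0.27 without 1 knockdown library and 0.73 to 0.86 without 1 control library. Same-numbered libraries did not deviate together (correlations of -0.165, -0.071 and -0.082), and no library correlated best with its own number. With the replicate block, 551 genes were called lower and 721 higher, the 12 NRF2 and 3 haem genes stayed lower, and the fold changes of the members were the same by construction. The depth is unknown, so no limit from counting can be given.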

Other observations

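Besides MT2A, MT1X and COX17, 3 listed genes whose mean reached 5 stood at 2 times or more the other controls in control library 3. They are named because of that value, which was seen first. ENSG00000289316, which has no name in the table, had 6.09, 6.21 and 3.46 in RNF5 KD libraries 1, 2 and 3, against 8.47, 13.79 and 27.97 in Ctrl libraries 1, 2 and 3, and the groups did not overlap. The non-coding RNA LINC01176 had 7.68, 1.02 and 1.80 in RNF5 KD libraries 1, 2 and 3, against 5.94, 4.73 and 10.7 in Ctrl libraries 1, 2 and 3, and its groups overlapped. RBM14, which encodes an RNA-binding coactivator, went the other way, with 30.7, 31.8 and 33.1 in RNF5 KD libraries 1, 2 and 3, against 11.8, 11.4 and 24.3 in Ctrl libraries 1, 2 and 3.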
